A study of Homo sapiens with 40 samples.

Results

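Takara and NEB were compared gene by gene in single T47D cells, a human luminal breast cancer cell line. The comparison took the cells that passed the quality thresholds of the study, 11 of 13 Takara cells and 11 of 14 NEB cells, which makes 22 of the 40 single cells deposited. All cells were of passage 10 with no drug treatment, and were sorted as EpCAM-positive, CD49f-positive cells. Takara is the SMART-seq HT kit, in which reverse transcription and cDNA amplification run in a single step with a template-switching oligo that carries a locked nucleic acid, followed by Nextera XT libraries. NEB is the NEBNext single-cell kit, whose oligo carries no locked nucleic acid, followed by Ultra II FS libraries. The cDNA of NEB cells also went through more PCR cycles than that of Takara cells, which cannot be told apart from the rest of the protocol. Each protocol had 1 plate and 1 sequencing run, so protocol, plate and run cannot be told apart, and the cells are not replicates of a protocol. For that reason no test was made, and every comparison below is a description of these 2 runs.

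Both kits prime the poly(A) tail of messenger RNA with oligo-dT, copy the RNA to its 5′ end and amplify the whole cDNA by PCR. Reads are therefore counted over the length of a transcript, and a gene is only seen if its cDNA survives copying and amplification. GC content, the share of G and C bases, sets how stably a template folds and at what temperature it melts, and is known to influence both steps. T47D cells are known for luminal keratins, for the estrogen and progesterone receptors and for the transcription factors GATA3 and FOXA1.

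The kept Takara cells held between 818512 and 1287911 reads on genes, and the kept NEB cells between 624772 and 963816. Together these were 11716685 and 7973692 reads on genes. ERCC spike-ins made up 0.538% to 1.33% of each Takara library, against 5.66% to 18.9% of each NEB library. Among all reads of a cell, those outside annotated genes averaged 2.90% ± 1.53 (SD, n = 11 cells) in Takara and 13.4% ± 2.75 in NEB, and those matching several genes at once 10.6% ± 0.423 and 5.68% ± 0.199. The luminal markers KRT8, KRT18, KRT19, ESR1, PGR, GATA3, FOXA1 and EPCAM had reads in at least 10 of 11 cells of both protocols. ITGA6, which encodes the sorting marker CD49f, had reads in 10 Takara cells (11.4 CPM) and 5 NEB cells (30.5 CPM). KRT5, KRT14, CDH2, PTPRC, CD3E, CD14, PECAM1, VWF and CDH5, which mark basal, mesenchymal, immune and endothelial cells, had no read in either, and 0 reads leave room for at most 0.256 CPM in the pooled Takara cells and 0.376 CPM in the pooled NEB cells. TP63 had 1 read in Takara, and VIM had 25 reads in 4 Takara cells and 144 reads in 3 NEB cells. Other genes of the basal and mesenchymal list were present, such as ACTA2, with 362 reads in 11 Takara cells and none in NEB, and FN1, with 322 reads in 10 Takara cells and 165 reads in 5 NEB cells.

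Expression is given over the pooled cells of a protocol as read counts scaled to a total of 1000000 reads on genes (CPM). Ratios between the protocols are log2 ratios after adding 1 CPM, positive where Takara was higher. Of the genes with a mean of at least 10 CPM over both protocols, 7866 were compared. Takara was 2-fold or more higher for 2936 of them (37.3%) and NEB for 2028 (25.8%), which left 2902 (36.9%) within 2-fold. The ratio reached 10-fold for 1132 genes higher in Takara and for 225 genes higher in NEB. The median log2 ratio was 0.24, with an SD of 2.36 across genes. For 964 genes (12.3%) the lowest Takara cell stood above the highest NEB cell, and for 218 genes (2.77%) the lowest NEB cell stood above the highest Takara cell. A gene enters this comparison on its mean over both protocols, so a gene seen by 1 protocol enters only through the protocol where it is high.

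Across the 7866 genes, Spearman's rho of pooled CPM between the protocols was 0.357 and Pearson's r on the log2 scale 0.359. Between single cells, the median rho was 0.789 over 55 pairs of Takara cells (0.713 to 0.862), 0.522 over 55 pairs of NEB cells (0.488 to 0.607) and 0.309 over 121 pairs of a Takara and an NEB cell (0.266 to 0.426). Every pair across the protocols lay below every pair within either of them. The plot of pooled expression shows the wide cloud around the line of equal values, and its separation by GC content.

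**Figure D1:**
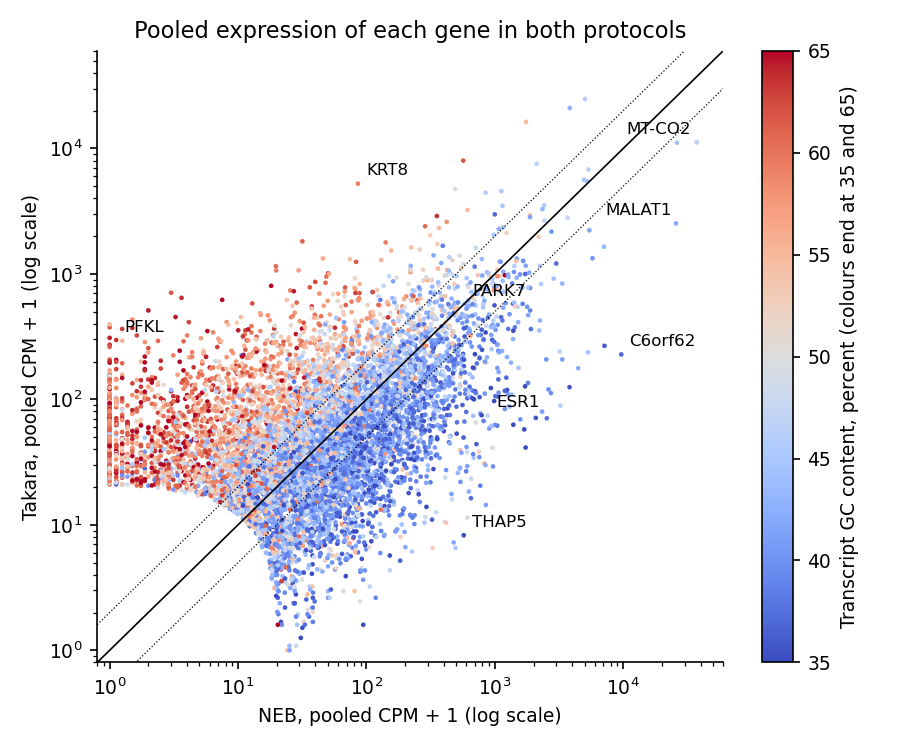
Pooled CPM of each gene in NEB (x axis) and Takara (y axis), both as CPM + 1 on log scales, coloured by the GC content of the transcript. The solid line marks equal values and the dotted lines 2-fold. Red, GC-rich genes such as KRT8 (5234 CPM in Takara and 84.8 in NEB) lie above the line, and blue, GC-poor genes such as C6orf62 (227 and 9639 CPM) lie below it.

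The sequences below show examples of this contrast on the mRNA itself, with G and C in capitals. Each is the middle 90 bases of the longest coding exon of the canonical GENCODE 44 transcript on GRCh38, written 5′ to 3′. SLC39A7 is shown as a gene much higher in Takara, THAP5 and C6orf62 as genes much higher in NEB.
SLC39A7: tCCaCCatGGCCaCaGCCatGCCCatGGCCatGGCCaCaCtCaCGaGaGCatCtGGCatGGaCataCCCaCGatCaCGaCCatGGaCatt
THAP5: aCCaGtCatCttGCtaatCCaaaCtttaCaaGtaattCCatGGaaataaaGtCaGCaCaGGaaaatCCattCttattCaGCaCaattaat
C6orf62: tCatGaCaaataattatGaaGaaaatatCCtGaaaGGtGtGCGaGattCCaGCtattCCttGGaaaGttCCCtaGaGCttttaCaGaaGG
The SLC39A7 stretch (chr6:33201406-33201495, plus strand, exon 1 of 7) holds 57.8% GC. The THAP5 stretch (chr7:108564605-108564694, minus strand, exon 3 of 3) holds 33.3% GC, and the C6orf62 stretch (chr6:24716192-24716281, minus strand, exon 2 of 5) 37.8%. Over the whole transcripts the GC contents are 55.1%, 34.9% and 36.9% in the same order. A coding stretch taken in this way does not always go with the direction. That of PARK7, a gene near a ratio of 1, also held 57.8% GC. That of ARF6, higher in every NEB cell, held 62.2%.

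The log2 ratio rose with transcript GC content across the 7594 nuclear protein-coding genes compared. In the lowest of 5 equal groups, from 30.7% to 39.6% GC, the median log2 ratio was -1.08, and 77 of 1519 genes were 2-fold or more higher in Takara against 799 in NEB. In the highest group, from 56% to 74.4% GC, the median was 3.49, and 1327 of 1519 genes were higher in Takara against 34 in NEB. The 3 groups between had medians of -0.57, 0.12 and 1.33. Cells of the protocols stood apart in the same way. In the highest GC group, 652 genes had every Takara cell above every NEB cell and 2 genes the reverse, while the lowest group held 6 and 87. Spearman's rho with GC content was 0.676 for the log2 ratio, 0.19 for Takara CPM and -0.532 for NEB CPM. These correlations are across genes of the same pooled libraries, and genes are not independent replicates.

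**Figure D2:**
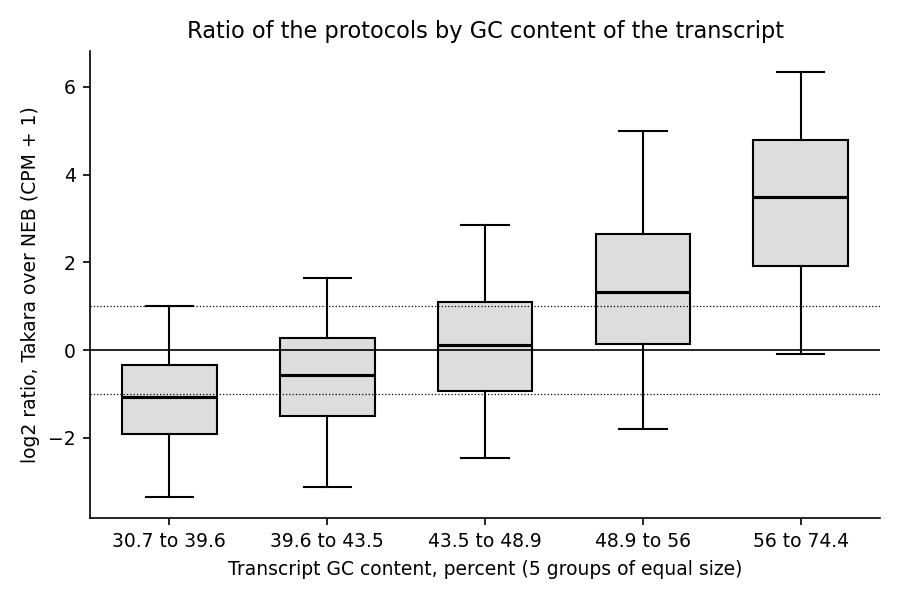
Log2 ratio of Takara over NEB (y axis) for nuclear protein-coding genes in 5 groups of equal size by transcript GC content in percent (x axis). Boxes hold the middle of the genes between the quartiles, lines inside them are medians, whiskers reach from the 5th to the 95th percentile, and dotted lines mark 2-fold. Medians climb from -1.08 to 3.49.

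The shift was present in every cell. The mean GC content of the transcripts, weighted by reads on nuclear protein-coding genes, was 49.2% ± 0.344 (SD, n = 11 cells) in Takara and 43.2% ± 0.48 in NEB, and the lowest Takara cell (48.6%) stood above the highest NEB cell (44.4%). Genes of the highest GC group took 22.2% ± 1.5 of the reads on the 5 groups in Takara cells and 3.78% ± 0.954 in NEB cells. Genes of the lowest GC group took 11.9% ± 0.505 and 29.7% ± 2.34. In the middle GC group the ranges overlapped, from 20.3% to 22.3% in Takara and from 21.8% to 24.2% in NEB.

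**Figure D3:**
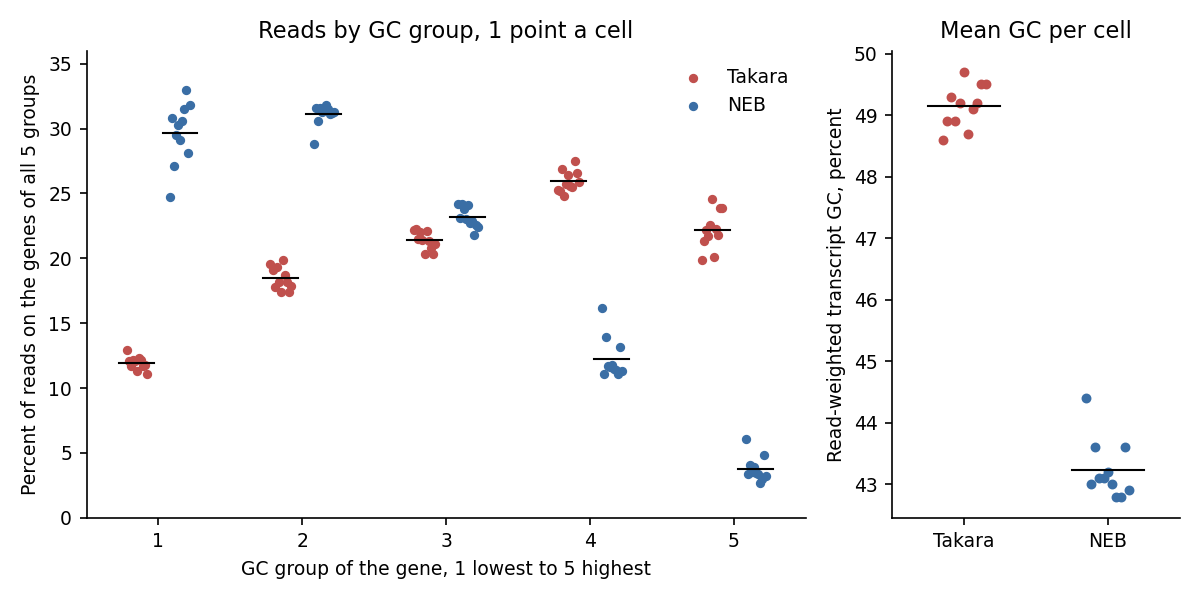
Left, percent of reads on each GC group of genes (x axis, lowest to highest GC) in each kept cell, and right, read-weighted mean transcript GC of each kept cell in percent, on an axis that does not start at 0. Points are cells and lines are means of the 11 cells of a protocol. Takara cells sit between 19.9% and 24.6% in the highest GC group and NEB cells between 2.71% and 6.07%.

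The GC content of parts of the transcript was compared with the ratio in the same way. Spearman's rho with the log2 ratio was 0.608 for the GC content of the 3′ untranslated region (7520 genes), 0.604 for that of the coding sequence, 0.543 for that of the last 200 bases and 0.216 for that of the first 200 bases. The GC of the richest window of 100 bases gave 0.182. The rho of each part with the GC content of the whole transcript was 0.882 for the coding sequence and 0.843 for the 3′ untranslated region. It was 0.718 for the last and 0.342 for the first 200 bases, and 0.35 for the richest window. Parts closer to the whole transcript mostly had the higher rho with the ratio, but not in strict order. Transcript length gave -0.36, the length of the 3′ untranslated region -0.363, the longest run of A bases -0.452, and the number of exons -0.0847. These properties move with GC content, with a rho of -0.37 for length and -0.51 for the A run. After subtracting from each log2 ratio the median of its bin among 50 bins of GC content, a step added after the pattern was seen, rho was -0.108 for length, -0.102 for the A run, 0.00759 for the GC of the coding sequence, 0.0474 for that of the 3′ untranslated region, 0.0472 for that of the last and -0.0194 for that of the first 200 bases.

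The ratio also varied with length inside a GC group, without a single order. In the highest GC group, the median log2 ratio was 3.02, 4.19, 3.70, 3.24 and 1.81 from the shortest to the longest of 5 length groups. In the lowest GC group it was -0.898 in the shortest (up to 1730 bases) and -1.39 in the longest (5753 bases and more). The SD of the log2 ratio was 2.36 before and 1.69 after the GC bins were subtracted, and 51.7% of the variance lay within the bins. The part of GC content, length or A runs in the differences between the protocols was not tested.

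The 12 genes with the largest ratio towards Takara, among those whose cells stood apart, were SLC39A7, GPS1, ZDHHC12, PYCR1, CD82, C19orf48P, PFKL, HID1, SLC25A1, ARRDC1, JUP and UBE2S. SLC39A7, which carries zinc out of the endoplasmic reticulum, had 286, 377 and 716 CPM in the lowest, median and highest Takara cell and no read in any NEB cell. Its pooled 395 CPM (95% Poisson interval 383 to 406) was at least 1049-fold above the NEB level that a count of 0 allows. GPS1, a subunit of the COP9 signalosome, ranged from 216 to 518 CPM in Takara cells around a median of 343 CPM, and had no NEB read (at least 993-fold higher). By the rule that picked the 12 genes, all 11 Takara cells saw each of them, at levels no NEB cell reached. PFKL, the liver-type phosphofructokinase of glycolysis, had 184, 319 and 406 CPM in the lowest, median and highest Takara cell and a single read in 1 NEB cell, which makes a ratio of 2359 with a counting interval of 423 to 93219. SLC25A1, the citrate carrier of mitochondria, had 510 CPM in Takara and 1.00 CPM in NEB. JUP, plakoglobin of desmosomes and adherens junctions, had 706 CPM (404 to 1148 CPM over cells) against 2.01 CPM (0 to 11.4). Transcripts of the 12 genes held between 55.1% and 64.5% GC, above the median of 45.9% in the middle of the 5 GC groups.

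The 12 largest ratios towards NEB were those of SERINC5, THAP5, PAN3, STRN3, NUDT19, R3HDM2, C6orf62, SKIL, TRIM59, POGZ, AEBP2 and CHP1. SERINC5, a multipass membrane protein, had 206, 486 and 927 CPM in the lowest, median and highest NEB cell and 0, 5.16 and 14.7 CPM in Takara, a pooled ratio of 88.8 (69.5 to 115). THAP5, a zinc finger protein, had 357, 518 and 1184 CPM in NEB cells against 0.808, 5.25 and 21.4 CPM in Takara cells. Unlike the genes at the other end, these were seen in 9 to 11 Takara cells each. PAN3, a subunit of a poly(A) nuclease, had 476 CPM in NEB and 6.23 CPM in Takara, and AEBP2, a cofactor of the Polycomb complex PRC2, had 769 and 19.5 CPM. C6orf62 was among the genes with most reads in NEB, with 9639 CPM (7259 to 12017 over cells) against 227 CPM (133 to 287). SKIL, a repressor of TGF-beta signalling, had 1734 CPM against 40.3. GC content of these 12 transcripts ran from 33.6% in SKIL to 52.5% in R3HDM2. R3HDM2 (5.55 CPM in Takara and 326 in NEB) and NUDT19 (10.4 and 610 CPM, 50% GC) lay at -7.10 and -6.65 log2 units from the median of genes of their GC content, further towards NEB than their GC content alone places them.

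**Figure D4:**
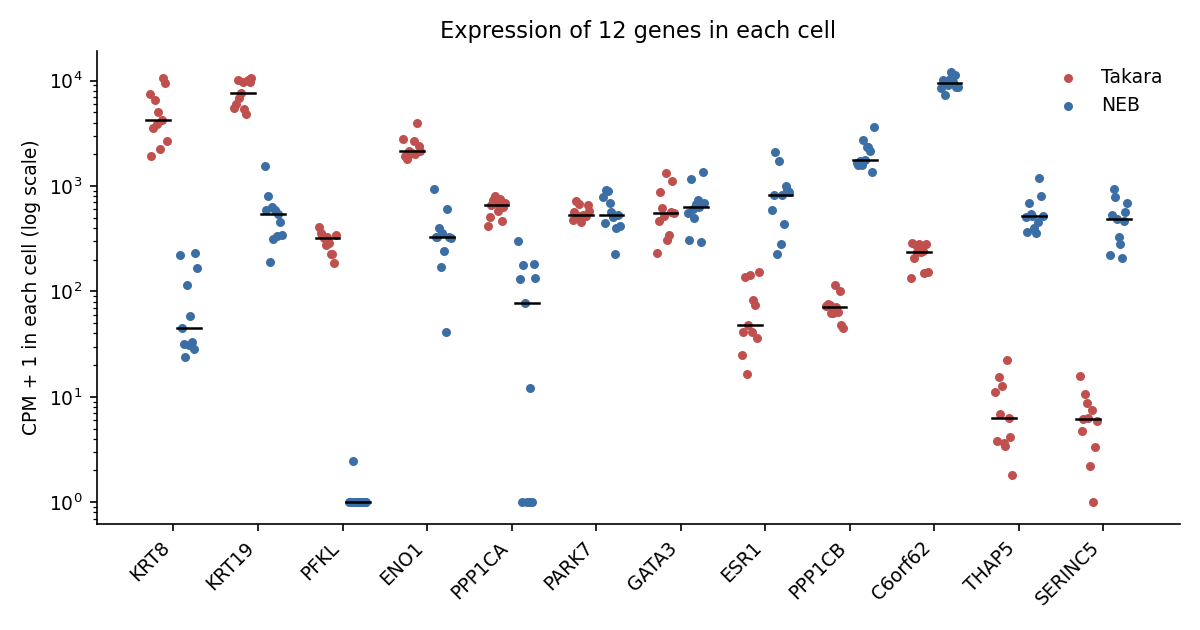
CPM + 1 on a log scale (y axis) of 12 genes (x axis) in each of the 11 kept Takara and 11 kept NEB cells, with lines at the medians. KRT8 and PFKL are higher in every Takara cell, PARK7 and GATA3 overlap, and PPP1CB, C6orf62, THAP5 and SERINC5 are higher in every NEB cell.

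The genes that took most reads differed between the protocols as well. Takara was led by MT-CO1, MT-RNR2, ACTB, MT-CO2, MT-ND4, KRT19, MT-CO3 and MT-CYB, and NEB by MT-CO2, MT-ND4, MALAT1, C6orf62, TBL1XR1, H3-3B, RPL7 and HSP90AA1, so that MT-CO2 and MT-ND4 were on both lists. ACTB, beta-actin, had 16262 CPM in Takara (11538 to 20156 over cells) against 1744 CPM in NEB (512 to 3289). TBL1XR1, a subunit of nuclear receptor corepressor complexes, had 266 and 7131 CPM, and HSP90AA1, the stress-inducible HSP90, 2222 and 5436 CPM. The cells stood apart for each of these 3 genes. Among the 8 most abundant genes seen in all Takara cells and at most 2 NEB cells were also TNFRSF12A, a receptor of the TNF family (411 and 3.14 CPM), and PPP2R1A, the scaffold subunit of protein phosphatase 2A (390 and 7.40 CPM). No gene met the same rule with the protocols exchanged.

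The 6 genes nearest to a ratio of 1, among those with a mean of at least 500 CPM, were PARK7, GLO1, CNN3, CCT5, VDAC3 and PSMA3. PARK7, a protein that guards against oxidative stress, had 570 and 574 CPM, with Takara cells at 455 to 713 CPM and NEB cells at 228 to 907 CPM. VDAC3, a channel of the outer mitochondrial membrane, had 710 and 728 CPM, with cells from 386 to 1096 and from 474 to 1364 CPM. The ranges of the cells overlapped for all 6 genes and were wider in NEB. Their transcripts held 39.4% to 46.1% GC.

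Closely related proteins encoded at different GC content were set side by side after the GC pattern had been seen. The catalytic subunits of protein phosphatase 1 match closely in sequence. In their best ungapped coding match within single exons, 73 of 90 bases were identical between PPP1CA and PPP1CB, with G and C in capitals as before.
PPP1CA: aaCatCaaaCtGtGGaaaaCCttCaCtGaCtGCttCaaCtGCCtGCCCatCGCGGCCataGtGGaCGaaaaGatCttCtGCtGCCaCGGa
PPP1CB: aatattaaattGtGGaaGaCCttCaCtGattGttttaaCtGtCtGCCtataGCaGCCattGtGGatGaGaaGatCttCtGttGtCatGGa
The PPP1CA stretch (chr11:67399562-67399651, minus strand, exon 4 of 7) held 51.1% GC and the PPP1CB stretch (chr2:28781752-28781841, plus strand, exon 4 of 8) 37.8%. PPP1CA, with 58.9% GC over its transcript, had 413, 665 and 802 CPM in the lowest, median and highest Takara cell and 0, 76.6 and 299 CPM in NEB, a log2 ratio of 2.87. PPP1CB, with 35.7%, had 43.6, 70.9 and 115 CPM in Takara and 1344, 1767 and 3652 CPM in NEB, a log2 ratio of -4.87. The ranges of the cells did not overlap for either gene, and the directions were opposite. PPP1CC, with 40.4% GC, had 281 and 137 CPM, and its cells overlapped.

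ARF GTPases, which drive vesicle budding, were split by the GC content of the whole transcript, though not by that of the coding stretch. ARF1 (54.0% GC) had 1309 CPM in Takara and 73.2 CPM in NEB, and ARF6 (42.8% GC) 301 and 1382 CPM. In both, the cells did not overlap between the protocols. In their best coding match, with 74 of 90 bases identical, ARF1 held 54.4% GC and ARF6 56.7%, the reverse of the order over the whole transcripts. ARF5 (59.4% GC) had 106 and 13.8 CPM and ARF4 (39.5% GC) 295 and 362 CPM. Of the small GTPases of signalling, HRAS (64.3% GC) had 57.7 and 5.52 CPM and NRAS (37.4%) 41.7 and 85.7 CPM. Of the 14-3-3 adaptor proteins, YWHAE (43.1% GC) was higher in every NEB cell, with 424 and 2241 CPM, and SFN (62.8% GC) had 24.7 CPM in 11 Takara cells and 4.39 CPM in 2 NEB cells. RHOB went against this order, with 57.5% GC, 9.13 CPM in Takara and 63.2 CPM in NEB. EIF4A1 had 6 reads in Takara and 27 in NEB, each in 1 cell, so no ratio is given.

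Gene lists and families are described by how many of their compared members passed 2-fold, read against the 37.3% and 25.8% of all genes. Members named beside those of the naming rule were chosen after their values were seen. Of 34 such groups with at least 7 compared genes, keratins and glycolysis had the highest median log2 ratios, at 3.81 and 2.86, and ubiquitin-specific proteases and kinesins the lowest, at -0.994 and -0.982. The plot of groups shows the medians beside the median GC content of each group.

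**Figure D5:**
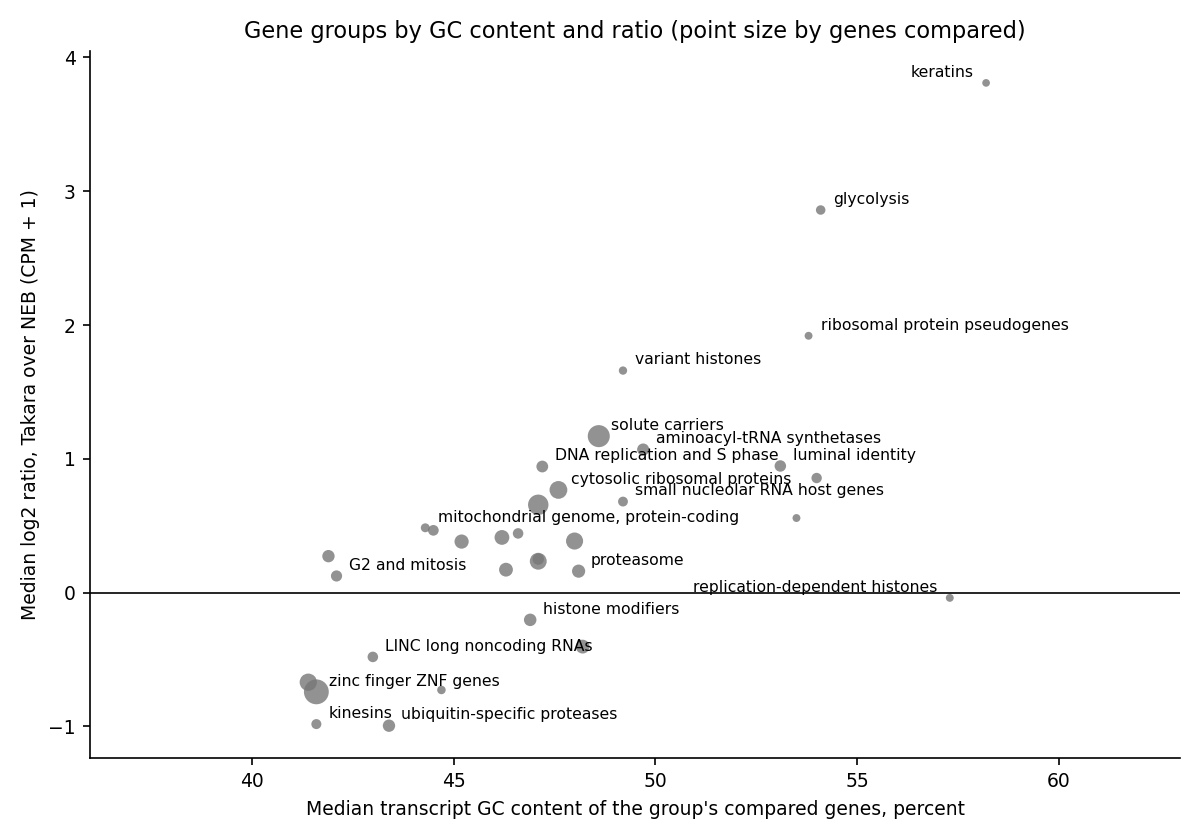
Median log2 ratio of Takara over NEB (y axis) of 34 gene lists and families against the median transcript GC content of their compared genes in percent (x axis). Point area grows with the number of genes. Keratins (58.2% GC) and glycolysis (54.1% GC) lie highest, kinesins and ZNF genes (41.6% GC each) lie low, and replication-dependent histones (57.3% GC) lie near 0.

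Luminal genes went both ways. Of 28 compared, 14 were 2-fold or more higher in Takara and 8 in NEB, with a median log2 ratio of 0.947. The keratins and tight junction proteins led in Takara. KRT8 had 1919, 4213 and 10661 CPM in the lowest, median and highest Takara cell and 23, 44.1 and 232 CPM in NEB, a log2 ratio of 5.93. KRT19 had 7986 and 566 CPM, KRT18 2592 and 420 CPM, CLDN3 620 and 6.52 CPM and CLDN4 1151 and 18.7 CPM. The Takara cells of these 5 genes stood above all NEB cells. SPDEF, a luminal transcription factor, had 452 CPM in Takara and 2.26 CPM in 3 NEB cells, and ERBB2, the HER2 receptor, 60.1 and 3.14 CPM.

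The steroid receptors and several transcription factors led in NEB. ESR1, the estrogen receptor, had 225, 830 and 2086 CPM in the lowest, median and highest NEB cell and 15.5, 47.4 and 151 CPM in Takara, a log2 ratio of -3.57, and the cells did not overlap. PGR, the progesterone receptor, had 1068 CPM in NEB and 164 CPM in Takara with overlapping cells (99.5 to 2337 and 48.6 to 448 CPM). TFAP2A had 607 CPM against 37.0 and TRPS1 2512 against 207, both without overlap. GATA3 had 667 CPM in NEB and 649 CPM in Takara, and FOXA1 63 and 44.8 CPM, with overlapping cells in both. GC content was 46.9% for ESR1, 41.6% for PGR and 53.7% for GATA3, against 59.3% for KRT8 and 69.2% for CLDN3. With the GC bins subtracted, the median of the luminal list was -0.337.

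Keratins other than these were few. Of 55 listed, 21 had reads and 7 were compared, with 6 higher in Takara and none in NEB, and KRT23 (138 and 77.6 CPM) was the member within 2-fold. With the GC bins subtracted the keratin median was 0.0776.

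Glycolysis was the list most on the side of Takara. Of 16 compared enzymes and transporters, 14 were higher in Takara and none in NEB, and for 9 the cells stood apart. GAPDH had 1326 CPM in Takara and 44.8 CPM in NEB, ALDOA 2393 and 285 CPM, PKM 757 and 81.0 CPM, and ENO1 2324 and 366 CPM. The lowest Takara cell had 1793 CPM of ENO1, above the 945 CPM of the highest NEB cell. LDHA, at 41.8% GC, had 1403 and 332 CPM, without overlap of the cells. GPI (207 and 164 CPM) and HK2 (10.3 and 13.2 CPM) were within 2-fold. With the GC bins subtracted the median was 1.56, below the 2.86 before, and 10 genes stood 2-fold or more towards Takara and 2 towards NEB.

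Cholesterol synthesis was split inside the pathway. Of 21 compared genes, 10 were higher in Takara and 3 in NEB. DHCR7, which makes the last step to cholesterol, had 285 CPM (229 to 342 over cells) in Takara and 0.878 CPM in 3 NEB cells. HMGCS1, an enzyme at the start of the pathway, had 10.9 and 149 CPM, and its lowest NEB cell (22.5 CPM) stood just above its highest Takara cell (21.3 CPM). SQLE, a later enzyme, had 125 and 343 CPM. The transcript of DHCR7 held 58.1% GC, and those of HMGCS1 and SQLE 39.0% and 46.5%.

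Cell cycle genes followed the phase lists unevenly. For DNA replication, 15 of 30 compared genes were higher in Takara and none in NEB. In detection, 13 of the 30 were seen in at least 6 more Takara cells, a share near the 38.7% of all genes. MCM5, of the replicative helicase, had 106 CPM in 11 Takara cells and 0.878 CPM in 1 NEB cell, whereas PCNA had 248 and 264 CPM and MCM6 82.9 and 101 CPM. For G2 and mitosis, 9 of 26 were higher in Takara and 4 in NEB, with a median of 0.125. PLK1 had 303 and 6.02 CPM, CDC20 694 and 59.2 CPM, CENPF 177 and 1044 CPM, and TOP2A 388 and 957 CPM. Cells overlapped for every gene of these 2 lists, whose levels change through the cycle. PLK1, for example, ranged from 0 to 1232 CPM over Takara cells.

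Genes of protein synthesis were uneven between families. Of 81 cytosolic ribosomal protein genes, 33 were higher in Takara and 6 in NEB, with a median of 0.768 and cells apart for 24 towards Takara and 1 towards NEB. RPS28 had 300 CPM in Takara and 12.9 CPM in NEB, and RPL7 1330 and 5751 CPM. With the GC bins subtracted the median of this family was 0.0214. Of 32 aminoacyl-tRNA synthetases, 17 were higher in Takara and 2 in NEB, with a median of 1.07. YARS2, which charges tyrosine tRNA in mitochondria, had 52.7 CPM in 11 Takara cells and no NEB read (at least 140-fold higher), while EPRS1 had 216 and 1240 CPM. Of 45 translation initiation factors, 18 were higher in Takara and 13 in NEB, and EIF2S3 had 207 and 3347 CPM, with at most 241 CPM in a Takara cell and at least 2262 CPM in an NEB cell. Of 53 splicing factors, 22 and 9 were higher. PTBP1 had 142 CPM against a single NEB read, and SRSF6 111 CPM against 2729.

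In the secretory pathway, 10 of 22 compared ER chaperones and unfolded protein response genes were higher in Takara and 4 in NEB. P4HB, a disulfide isomerase, had 1066 and 28.6 CPM and CALR, calreticulin, 268 and 19.1 CPM, both without overlap. HSPA5 (BiP) had 1153 and 1418 CPM, and DNAJC3, a cochaperone of BiP, 33.6 CPM against 755 CPM in NEB. Of 72 nuclear genes of oxidative phosphorylation, 24 were higher in Takara and 10 in NEB, with a median of 0.235. With the GC bins subtracted, 10 lay 2-fold or more towards Takara and 24 towards NEB, with a median of -0.408. ATP5F1B, of the ATP synthase, had 4758 and 488 CPM, and NDUFA5, of complex I, 83.7 and 426 CPM. Of 40 proteasome genes, 11 and 9 were higher, with PSMD3 (132 and 4.51 CPM) and PSMB4 (195 and 855 CPM) at the ends. With the GC bins subtracted, 7 proteasome genes lay 2-fold or more towards Takara and 9 towards NEB. PSMB4 held 52.0% GC, so its direction was not that of most genes of its GC content.

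Some families of long, GC-poor transcripts leaned to NEB, but not all. RAB GTPases, with medians of 41.9% GC and 3317 bases, had a median log2 ratio of 0.273. Of 34 ubiquitin-specific proteases, 7 were higher in Takara and 17 in NEB, and USP16 had 64.6 and 506 CPM. After the GC bins were subtracted, 6 of these proteases lay 2-fold or more towards Takara and 12 towards NEB, with a median of -0.693. Of 19 kinesins, 4 and 9 were higher, with KIF22 (216 and 7.15 CPM, 58.1% GC) and KIF20B (122 and 929 CPM, 34.3% GC) at the ends. After the same step, 4 kinesins lay towards Takara and 6 towards NEB, with a median of -0.300. Of 168 zinc finger ZNF genes, 35 and 64 were higher, with a median of -0.741. With the GC bins subtracted, 40 lay 2-fold or more towards Takara and 45 towards NEB, with a median of -0.144. Of the same 168 genes, 74 were detected in at least 6 more Takara cells, a share near the 38.7% of all genes compared, and on average a gene was seen in 9.61 Takara cells and 4.53 NEB cells. Membrane proteins leaned the other way. Of 130 solute carriers, 66 were higher in Takara and 29 in NEB, and of 110 transmembrane TMEM genes 52 and 17.

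Other groups are given by their counts. Of 48 genes of Golgi and ER vesicle transport, 18 were higher in Takara and 9 in NEB, of 74 mitochondrial ribosomal proteins 24 and 8, and of 23 cytosolic chaperones 10 and 2. Of 34 RAB GTPases, 8 and 9 were higher, of 28 DEAD-box helicases 10 and 6, and of 35 histone modifiers 11 and 10. Of the 8 immediate early response genes compared, 3 and 1 were higher. Of 18 small nucleolar RNA host genes, 8 and 4 were higher, and of 8 ribosomal protein pseudogenes, 5 and 1, with a median of 1.92. Of the 76 ZNF and other KRAB genes of chromosome 19, 16 and 27 were higher, with a median of -0.669. With the GC bins subtracted, 21 of these 76 lay 2-fold or more towards Takara and 16 towards NEB, with a median of 0.177. Only 4 basal and mesenchymal genes reached 10 CPM, with 1 higher in each protocol, and no immune or endothelial gene did.

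Replication-dependent histone genes stood off the line of GC content. Of 8 compared replication-dependent histone genes, whose mRNAs end in a stem-loop and mostly lack a poly(A) tail, 1 was higher in Takara and 2 in NEB, with a median of -0.0387 at a median GC content of 57.3%. H4C3 had 346 and 476 CPM, and H2BC4 5.72 and 43.5 CPM. With the GC bins subtracted, all 8 lay 2-fold or more towards NEB, with a median of -2.80. Of 10 variant histones, whose mRNAs are polyadenylated, 7 were higher in Takara and 3 in NEB, with a median of 1.66 at 49.2% GC. With the GC bins subtracted, 4 variant histones lay 2-fold or more towards Takara and 3 towards NEB, with a median of 0.428. H3-3B had 1644 and 7061 CPM, with at most 2619 CPM in a Takara cell and at least 3176 CPM in an NEB cell, while H3-3A, which encodes the same protein, had 411 and 109 CPM.

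By transcript class, protein-coding genes took 96.3% ± 0.539 of reads on genes in Takara cells and 95.3% ± 1.19 in NEB cells. Long noncoding RNAs took 0.972% ± 0.162 and 3.52% ± 1.23, without overlap of the cells (0.635% to 1.30% and 1.55% to 5.27%). MALAT1, a nuclear RNA, made up most of that share in NEB but not in Takara, with pooled 25666 CPM and 2522 CPM. It had 665, 2782 and 5155 CPM in the lowest, median and highest Takara cell and 7265, 21342 and 44265 CPM in NEB. NEAT1, of nuclear paraspeckles, had 42.5 and 280 CPM with overlapping cells. Of 159 long noncoding RNAs compared, 23 were higher in Takara and 67 in NEB. Of 22 with a LINC name, 3 and 9 were higher, of 45 antisense RNAs 5 and 13, and of 11 nuclear RNAs on a fixed list 1 and 3. PSMA3-AS1 had 35.6 and 676 CPM. It overlaps PSMA3 on the other strand, and the strand setting of the counts is not given in the sources used here, so reads of the pair may not be told apart. More long noncoding RNA genes had reads in Takara, 726 a cell against 245 in NEB. The same held for genes of all classes together, 11178 a Takara cell against 5277 an NEB cell.

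The mitochondrial genome was divided gene by gene. Its 13 protein-coding genes took 7.82% of pooled reads in Takara and 8.95% in NEB, and every cell saw all 13. MT-CO1 had 12451, 25872 and 39132 CPM in the lowest, median and highest Takara cell and 3103, 5177 and 7803 CPM in NEB. MT-CO2, of the same enzyme complex, had 8139, 11313 and 14932 CPM in Takara and 29890, 35687 and 45546 CPM in NEB. The cells were apart in opposite directions, although both transcripts hold 46.2% GC. MT-ND3, MT-ND6, MT-CO3 and MT-ND5 also had all Takara cells above NEB cells, and MT-ND4 and MT-ND4L all NEB cells above Takara cells. MT-ATP6 had 5463 and 5233 CPM. The ribosomal RNAs MT-RNR2 and MT-RNR1 had 20971 and 740 CPM in Takara and 3829 and 228 CPM in NEB. None of the listed spliceosomal small nuclear RNAs, small nucleolar RNAs, 7SL and Y RNA copies or microRNA genes reached a mean of 10 CPM.

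Detection, meaning at least 1 read in a cell, was on the side of Takara for most genes. Any kept cell of Takara saw 18015 genes and any of NEB 12479, with 11359 shared, 6656 in Takara only and 1120 in NEB only. All 11 cells saw 6606 genes in Takara and 1388 in NEB, of which 1335 were the same genes. There were 413 genes seen in all 11 Takara cells and no NEB cell, and 0 the other way. Among the 7866 genes compared, 3042 (38.7%) were detected in at least 6 more Takara cells and 4 (0.0509%) in at least 6 more NEB cells. From the detection expected after thinning every cell to 624772 reads on genes, the counts were 2723 and 4.

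By any margin, 128 of the genes compared were detected in more NEB cells and 6328 in more Takara cells. The 4 genes detected in at least 6 more NEB cells were KLK3 and the identifiers ENSG00000274561, ENSG00000272720 and ENSG00000272093, named after their values were seen. KLK3, which encodes the hormone-induced protease PSA, had no read in Takara and 185 reads in 10 NEB cells, with 0, 18.5 and 71.9 CPM in the lowest, median and highest. Its pooled 23.2 CPM was at least 90.6-fold above the Takara level that a count of 0 allows.

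The gap narrowed with expression. Genes of 10 to 30 CPM were seen on average in 9.95 Takara cells and 3.52 NEB cells, those of 30 to 100 CPM in 10.8 and 6.27, those of 100 to 300 CPM in 10.9 and 9.09, and those of 300 to 1000 CPM in 11 and 10.6. The spread over cells followed. At 10 to 30 CPM, the median coefficient of variation of a gene was 69.1% in Takara and 213% in NEB, and at 300 to 1000 CPM it was 25% and 47.8%. For the median gene compared, the highest cell gave 17.5% of the pooled reads in Takara and 36.3% in NEB.

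At equal mean expression, detection in NEB fell with GC content and detection in Takara did not. For genes of 30 to 100 CPM, the mean number of NEB cells was 7.46 in the lowest GC group and 3.69 in the highest, and that of Takara cells 10.6 and 10.9. For genes of 100 to 300 CPM it was 10.1 and 6.17 in NEB and 10.9 and 11 in Takara. The lowest GC group, although mostly higher in NEB by level, was still seen in fewer NEB cells. The mean expression here is that of both protocols, so a GC-rich gene of a given mean had fewer NEB reads.

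The ERCC spike-ins, which were added to every well as RNA of known makeup, were compared separately. Of 92 listed, 21 held at least 1000 of every 1000000 ERCC reads, and 10 of these were within 2-fold, 8 higher in Takara and 3 in NEB. Their log2 ratios had a median of 0.093 and an SD of 1.64, and ran from -2.39 to 3.61, with a Spearman's rho of 0.736 across the 21. They were compared as shares of ERCC reads, so the larger ERCC share of NEB libraries does not enter. Their number and their filter differ from those of the genes, so this rho cannot be set against that across genes.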

How the data were processed

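For the counts used here, the authors ran Trim Galore on the reads and STAR against GRCh38, and the tables they deposited hold raw read counts per gene, 1 table a protocol, with no normalization and no molecular identifiers. Tool names and build come from the submitters' processing notes and the study's methods. The annotation release and the strand setting are not given in the sources used here. Cells with at least 1000 genes, a library of at least 600000 reads, at most 30% mitochondrial and at most 25% ERCC reads were kept. Rows on genes were pooled over cells and scaled to CPM, with 95% Poisson intervals, or exact binomial intervals for ratios, which cover counting error only. For genes without a read the limit was set at 3 reads. The range of reads on genes per cell is in the report. Genes with a mean of at least 10 CPM were compared, with 1 CPM added before log2. Gene types, transcripts, GC content and lengths came from GENCODE release 44 by Ensembl identifier, for 56104 of the listed genes. Sequences came from its transcripts.

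No test was made, since each protocol is 1 run. Members and lists were chosen with earlier results of these data known, and the related-protein sets and the GC bins after the GC pattern was seen. Genes were named by a rule: the 12 largest ratios each way among genes whose cells stood apart, the 8 most abundant genes of each protocol and the 8 most abundant seen in all cells of 1 protocol and at most 2 cells of the other, the extremes and most abundant member of each list, sorting and cell type markers, and the 6 ratios nearest to 1. Alternatives covered pooling, pseudocount, filter, denominator, TMM scaling, cells kept, the reads that count as detection, thinning and each cell left out. The steps were tested on simulated data. TMM factors came from edgeR 4.0.16 in R 4.3.3, and all else was computed with scipy 1.17.1, pandas 2.3.3 and numpy 2.4.6 and drawn with matplotlib 3.10.9, under Python 3.11.15.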

Additional observations from a re-analysis of the deposited data

Results flagged for a closer look

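Wells that failed the quality thresholds were outside every comparison, and their reads on genes are described here. The Takara wells left out were C2, with 2448 genes detected in 15325 reads on genes, and F1, with 615 genes in 7990 reads, and ERCC spike-ins took 91.3% and 96.7% of these libraries. Their read-weighted transcript GC contents of 50.1% and 48.1% stood beside 48.6% to 49.7% in the kept Takara cells. The NEB wells left out were B2, with 2812 genes in 450656 reads and 28.4% ERCC, F1, with 859 genes in 1421 reads and 99.7% ERCC, and F2, with 5919 genes in 549926 reads and 5.95% ERCC. Their GC contents of 42.5%, 43.5% and 42.4% stood beside 42.8% to 44.4% in the kept NEB cells. In all 5 wells the GC content was nearer to the cells of its own protocol than to those of the other. Other measures of Takara C2 and F1 were unlike those of kept Takara cells. Mitochondrial reads made up 0.0872% and 0.0118% of their libraries, against 7.84% to 13.2%. Their read-weighted median transcript lengths were 4036 and 3959 bases, against 2112 to 2263 in kept Takara and 2777 to 3313 in kept NEB cells. Whether such reads came from a cell in the well was not tested.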

How the results depend on the processing

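The filter on expression sets how many genes are compared, and moved their counts. With a mean of at least 1 CPM, 5252 genes were 2-fold or more higher in Takara and 3079 in NEB, 5212 were detected in at least 6 more Takara cells and 17 in at least 6 more NEB cells, rho between the protocols was 0.589 and that of the log2 ratio with GC content 0.594. With at least 50 CPM, the counts were 1157 and 1043, 545 and 0, with 483 genes whose Takara cells all stood above the NEB cells, and rho between the protocols was 0.104. With all deposited cells, the genes with every Takara cell higher fell from 964 to 7 and those with every NEB cell higher from 218 to 64. Counts of genes with cells apart can hardly rise when wells are added or fall when a cell is left out. Their changes under these alternatives therefore do not measure stability. Counting detection from 5 reads gave 18 genes on the side of NEB. The median detection gap of genes of 10 to 100 CPM was 5 cells, and 6 with 5 reads or with mitochondrial genes left out. Leaving out each cell in turn gave 5.5 to 5.8, scaled to 11 cells, 2909 to 2971 and 1989 to 2083 genes past 2-fold, 965 to 1080 and 219 to 245 genes with cells apart, 2601 to 2922 and 3 to 4 genes in the detection counts, 0.338 to 0.36 for rho between the protocols and 0.657 to 0.673 for rho with GC content. With GC bins subtracted, an alternative chosen after seeing the data, 1877 of 7594 nuclear protein-coding genes stood 2-fold or more towards Takara and 1962 towards NEB, where 2878 and 1923 had done so before, and rho with GC content was 0.00477 by construction. That step turned the log2 ratio of KRT19 to -0.01, HRAS to -1.17, PPP1CA to -0.16, ARF5 to -0.05, KRT18 to -0.41, H2AC25 to -1.80, RHOC to -0.51, SFN to -1.58, PFKP to -0.66, RAB5C to -1.25 and NRAS to 0.16. Ribosomal protein pseudogenes turned to a median of -0.07 with the filter of 1 CPM. No other alternative reversed a named gene. No paired analysis was possible because the result comes from no test and wells with the same name hold different cells. At equal depth, by thinning, 2723 genes were still detected in at least 6 more Takara cells, against 3042.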

Other observations

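Chromosomes differed in the median log2 ratio of their genes along with the GC content of their transcripts. Chromosome 19 had the highest median, 2.02, at a median GC content of 58.2%, ahead of chromosome 22 with 1.86 at 54.6% and chromosome 16 with 1.53 at 53.5%. Chromosome 13 had a median of -0.67 at 40.8% and chromosome 4 a median of -0.586 at 41.0%.

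Some genes whose cells stood apart lay far from the median of genes of their GC content, and were chosen after their values were seen. Towards NEB these were PTPRS, a receptor phosphatase, at -7.15, R3HDM2 at -7.10, MIDEAS and CTBP1, both parts of corepressor complexes, at -6.90 each, NUDT19 at -6.65 and SERINC5 at -6.27 log2 units. Towards Takara they were SLC39A7 at 6.69, STX3, a syntaxin of the plasma membrane, at 6.49, TBL2 at 6.34, CRLS1, which makes cardiolipin, at 5.98, PRUNE1 at 5.98 and TMEM135 at 5.95.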
